A study of Mus musculus with 10 samples.

Results

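The promoters of 60 genes for cytosolic ribosomal proteins were examined for H3K18La, lactylation of lysine 18 of histone H3, and for H3K27Ac, acetylation of lysine 27. The genes were those whose symbol starts with Rpl or Rps and a number and that had an autosomal peak annotated as promoter. Pseudogenes marked -ps and the Rps6k kinases were left out. Each gene was represented by the promoter peak with the highest mean RPKM (reads per peak, corrected for peak length and for the size of the library) over all 10 libraries, which left 60 peaks out of 63 matching rows. They belonged to 14154 autosomal genes with a promoter peak and to 108253 peaks in all. Of the 60 genes, 31 encoded large-subunit and 29 small-subunit proteins or their paralogues.

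The libraries came from retinas of wild-type C57BL/6J mice at postnatal day 28, kept as explants for 48 hours in medium with 5 mM or 25 mM glucose. CUT&Tag, in which an antibody directs a transposase to a modified histone, was run with 3 libraries per glucose level for H3K18La and 2 per level for H3K27Ac. The study's methods speak of biological replicates, but no source used here ties a library to an animal, so p-values measure only the spread between these libraries. Explants hold all retinal cell types, and the sclera with its pigment epithelium had been removed, so more cells of a type carrying a mark and more mark per cell cannot be told apart.

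Cytosolic ribosomes are built from a small subunit, which reads the message, and a large subunit, which joins amino acids. Their protein genes are transcribed in every growing cell, from short promoters in CpG-rich sequence whose transcripts usually start with a C inside a pyrimidine tract, the terminal oligopyrimidine (TOP) motif. That motif makes their translation depend on mTORC1, a kinase complex that responds to nutrients. H3K27Ac marks active promoters and enhancers, whereas H3K18La carries a lactyl group and links chromatin to glycolysis.

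The start regions of 8 genes are shown because they carry either the TOP motif or the largest changes described below. They run from 70 bases before to 30 bases from the annotated RefSeq start onward, read 5′ to 3′ on the gene's strand in GRCm38.p6. Capitals mark a pyrimidine run that begins with C at the annotated start, and any CCGGAAG, the core bound by ETS factors, on either strand. The windows were chr4:86857338-86857437 (minus strand) for Rps6, chr17:33955636-33955735 (minus) for Rps18, chr2:180257309-180257408 (plus) for Rps21, chr17:27635215-27635314 (minus) for Rps10, chr9:120571447-120571546 (plus) for Rpl14, chr10:128549139-128549238 (minus) for Rpl41, chr16:55966205-55966304 (plus) for Rpl24 and chr10:80292361-80292460 (plus) for Rps15.
Rps6: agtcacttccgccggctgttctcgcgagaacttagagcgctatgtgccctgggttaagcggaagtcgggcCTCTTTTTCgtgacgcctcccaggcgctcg
Rps18: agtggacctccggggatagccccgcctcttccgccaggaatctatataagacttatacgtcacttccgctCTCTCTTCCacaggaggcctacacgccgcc
Rps21: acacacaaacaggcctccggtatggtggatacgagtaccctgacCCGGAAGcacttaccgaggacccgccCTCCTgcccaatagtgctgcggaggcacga
Rps10: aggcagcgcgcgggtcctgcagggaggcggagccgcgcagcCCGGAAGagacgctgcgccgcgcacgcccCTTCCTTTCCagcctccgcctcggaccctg
Rpl14: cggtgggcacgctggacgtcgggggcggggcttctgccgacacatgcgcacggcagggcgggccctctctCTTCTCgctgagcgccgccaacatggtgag
Rpl41: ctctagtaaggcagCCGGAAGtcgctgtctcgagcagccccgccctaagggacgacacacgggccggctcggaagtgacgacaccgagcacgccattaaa
Rpl24: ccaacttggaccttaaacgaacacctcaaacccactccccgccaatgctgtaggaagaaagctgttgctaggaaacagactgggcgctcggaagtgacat
Rps15: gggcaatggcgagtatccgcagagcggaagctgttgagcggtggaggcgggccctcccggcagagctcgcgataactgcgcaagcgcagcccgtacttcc

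A RefSeq start inside the peak was found for 44 of the 60 genes. A C at the annotated start followed by at least 4 pyrimidines was present in 8 of these 44 (18.2%), against 3.11% of 9741 other genes with a promoter peak and a sequence. A run of this kind starting within 10 bases of the start was present in 25 (56.8%), against 37.0% of the other genes. The ETS core occurred within 250 bases before to 50 bases after the start in 19 of 44 (43.2%), against 16.2%. The GC box GGGCGG was found in 63.6% against 65.2%, and the YY1 core GATGGCG in 6.82% against 6.34%. The E box CACGTG was found in 13.6% against 11.2% and the NRF1 core GCGCATGCG in 6.82% against 3.54%, while TATAAA on either strand was found in 4.55% against 9.36%. On the strand of the gene, TATAAA within the stretch from 40 to 20 bases before the start was found in 1 of 44 (2.27%), against 1.49%. A match to letters is a description and not a binding site, and all of these shares depend on the annotated start. For the 44 genes only starts inside the peak were searched, but for the other genes every annotated start. The 2 sets of shares are therefore not strictly alike.

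All 60 peaks overlapped an annotated start, as did 89.4% of the other promoter peaks. Their median width was 1055 bp, between 519 and 1900 bp, against 1124 bp for the others. Median GC content was alike, at 58.2% and 57.8%, whereas the observed over expected CpG ratio was 0.811 in ribosomal protein promoters and 0.623 in the others. In 7 peaks another coding gene also started, for example Mgat2 beside Rpl36al, Clhc1 beside Rps27a, Vps52 beside Rps18, Zwilch beside Rpl4 and C330021F23Rik beside Rps23rg1, so their reads cannot be assigned to 1 gene. A further 20 autosomal coding genes with matching symbols had no promoter row of their own. For 8 of these a peak lay over the start but was annotated to a neighbour, which included Rpl35a in a peak named for Iqcg.

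Pooled over the 60 peaks, H3K27Ac was 3.47 and 5.30 RPKM in the 5 mM libraries and 17.5 and 11.4 RPKM in the 25 mM libraries. The means were 4.38 ± 1.29 and 14.5 ± 4.36 (SD, n = 2 each), a ratio of 3.30. All other promoters, pooled in the same way, had 4.32 ± 1.15 and 12.4 ± 3.31 RPKM (SD, n = 2 each), a ratio of 2.87. Ribosomal protein promoters thus held 0.990 and 1.03 times the H3K27Ac of other promoters at 5 mM and 1.19 and 1.13 times at 25 mM, and these groups did not overlap.

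H3K18La gave far lower RPKM than H3K27Ac at the same peaks, and likewise at the other promoters. The latter pooled to 1.16 ± 0.0611 RPKM at 5 mM and 3.25 ± 0.683 at 25 mM (SD, n = 3 each). RPKM from 2 antibodies does not compare the amounts of the marks. Pooled values of the 60 peaks were 0.905, 0.838 and 0.769 RPKM at 5 mM and 2.72, 1.58 and 1.41 RPKM at 25 mM. The means were 0.837 ± 0.0682 and 1.90 ± 0.716 (SD, n = 3 each), a ratio of 2.27, against 2.79 for the other promoters. Relative to other promoters, ribosomal protein promoters held 0.733, 0.744 and 0.679 times the signal at 5 mM and 0.676, 0.535 and 0.508 times at 25 mM. Every 25 mM library was lower in this ratio than every 5 mM library, although the nearest pair differed only in the third digit. Replicate 1 at 25 mM stood above the other 2 and was the highest of the 3 at 41 of the 60 peaks.

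**Figure D1:**
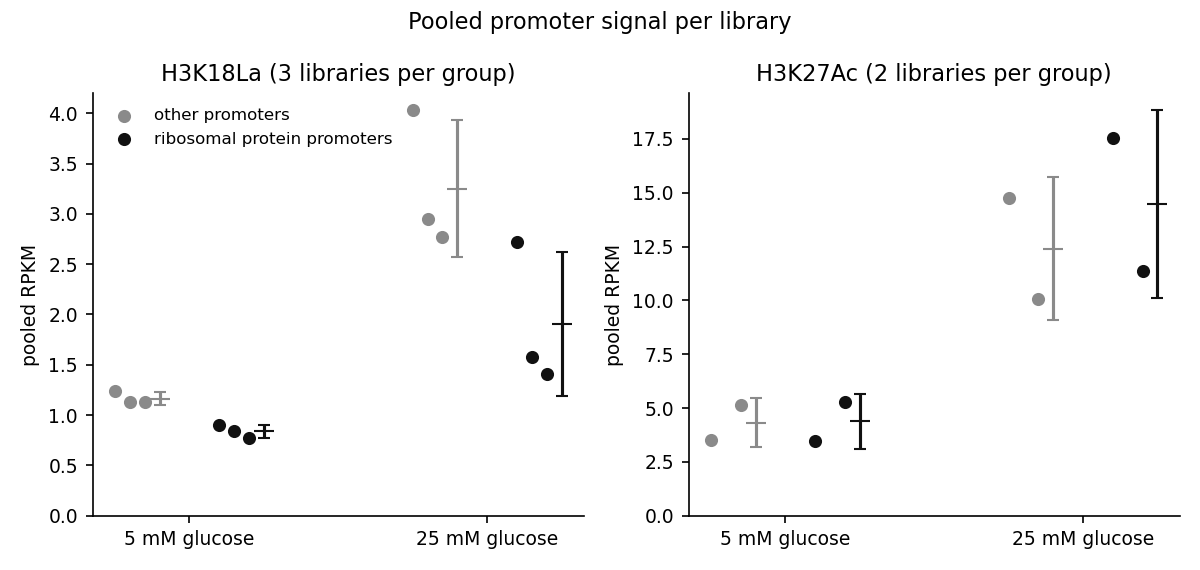
Pooled RPKM (y axis, from 0) of the 60 ribosomal protein promoters (black) and all other promoters (grey) in each library at 5 mM and 25 mM glucose, with mean ± SD beside the points. H3K18La was below the other promoters in every library, while H3K27Ac was level with them at 5 mM and above them at 25 mM.

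Depth set what each mark could show. The RPKM denominators ran from 1358008 to 7424470 reads. The 60 peaks together held 128, 291 and 70 H3K18La reads at 5 mM and 359, 430 and 280 at 25 mM, with 8, 0 and 19 of the 60 peaks at 0 reads in the 5 mM libraries. For H3K27Ac they held 1006 and 2205 reads at 5 mM and 8461 and 5664 at 25 mM, and no peak was at 0. At such depth a peak without a read may still carry signal worth as many as 3 reads, and 50, 26 and 57 of the 60 peaks held 3 H3K18La reads or fewer at 5 mM.

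The share of all reads in peaks that fell on these promoters does not depend on how libraries are scaled to each other. For H3K27Ac it was 0.110% (95% Wilson interval 0.104% to 0.117%) and 0.113% (0.108% to 0.117%) at 5 mM. At 25 mM it was 0.169% (0.166% to 0.173%) and 0.135% (0.132% to 0.139%), so that both intervals lay above those at 5 mM. A shift of reads to promoters in general also enters this share. Of the H3K27Ac reads on all promoters, these genes held 0.389% and 0.406% at 5 mM and 0.468% and 0.444% at 25 mM. For H3K18La the shares of all reads in peaks were 0.0505%, 0.0472% and 0.0436% at 5 mM and 0.0522%, 0.0335% and 0.0303% at 25 mM. Here the groups overlapped, because replicate 1 at 25 mM (interval 0.0471% to 0.0579%) had the highest share of all 6. These intervals cover counting error only.

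Peak by peak, all 60 ribosomal protein promoters had more H3K27Ac in both 25 mM libraries than in either 5 mM library, which held for 79.3% of all promoters. In limma on log2(RPKM + 0.5) 54 of 60 rose at an adjusted p under 0.05 and none fell, where 33.9% of all peaks tested and 59.0% of the promoters tested rose. The median log2 fold change was 1.53, against 1.16 over all promoters, and 51 of 60 lay above that value. These medians depended on the scaling and were 0.85 against 0.48 after centring on the median of peaks, 0.37 against 0.04 after scaling to reads in peaks and 0.43 against 0.14 with quantile normalization. On the RPKM scale the quartiles of the 60 changes were 1.36 and 1.75, a span of 0.39, where all promoters spanned 0.94. With 2 libraries per group the standard errors came wholly from the trend over all peaks and were 0.42 to 0.53 for each of the 60. The spread of a single peak had no weight in this fit, so its p-values do not measure the spread at that gene. The number of calls changed with the settings, for these genes and for all promoters alike. Without replicate 1 at 25 mM 0 of 60 were called and without replicate 2 there were 3, where 0.00811% and 2.56% of promoters tested rose. After centring on the median peak 6 were called against 3.64% of promoters, and with the replicate block 22 against 16.4%, or 24 against 16.9% with a GC trend also removed. Scaling to reads in peaks, quantile normalization and a fit with no minimum called 0 of 60 and 0% of all peaks. In these fits 14, 15 and 58 of the 60 had an unadjusted p under 0.05. Among all peaks tested it was 12491 of 72442, 7680 of 72442 and 31013 of 108253.

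The share of reads in peaks, as a percent of the RPKM denominator, moved with glucose in every library. It was 21.1% and 31.5% at 5 mM and 69.5% and 56.5% at 25 mM for H3K27Ac. For H3K18La the middle one of the 3 libraries was at 11.9% at 5 mM and at 31.6% at 25 mM, and the groups did not overlap. This shift and glucose cannot be told apart on the RPKM scale. On the RPKM scale most peaks were higher at 25 mM, with a median log2 change over all peaks of 0.58 for H3K27Ac and 0.76 for H3K18La. After centring on the median of peaks these medians were -0.11 and -0.15, and after scaling to reads in peaks -0.30 and -0.07. The H3K27Ac median of ribosomal protein promoters lay 0.37 above that of all promoters on the log2 scale. Centring, another minimum, the moderation, the threshold and the block cannot change this difference. With other pseudocounts, reads in peaks, quantile normalization, voom, another choice of peak, a GC trend removed or 1 library left out it lay between 0.29 and 0.46, and it was 0.28 over promoters past the minimum alone.

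**Figure D2:**
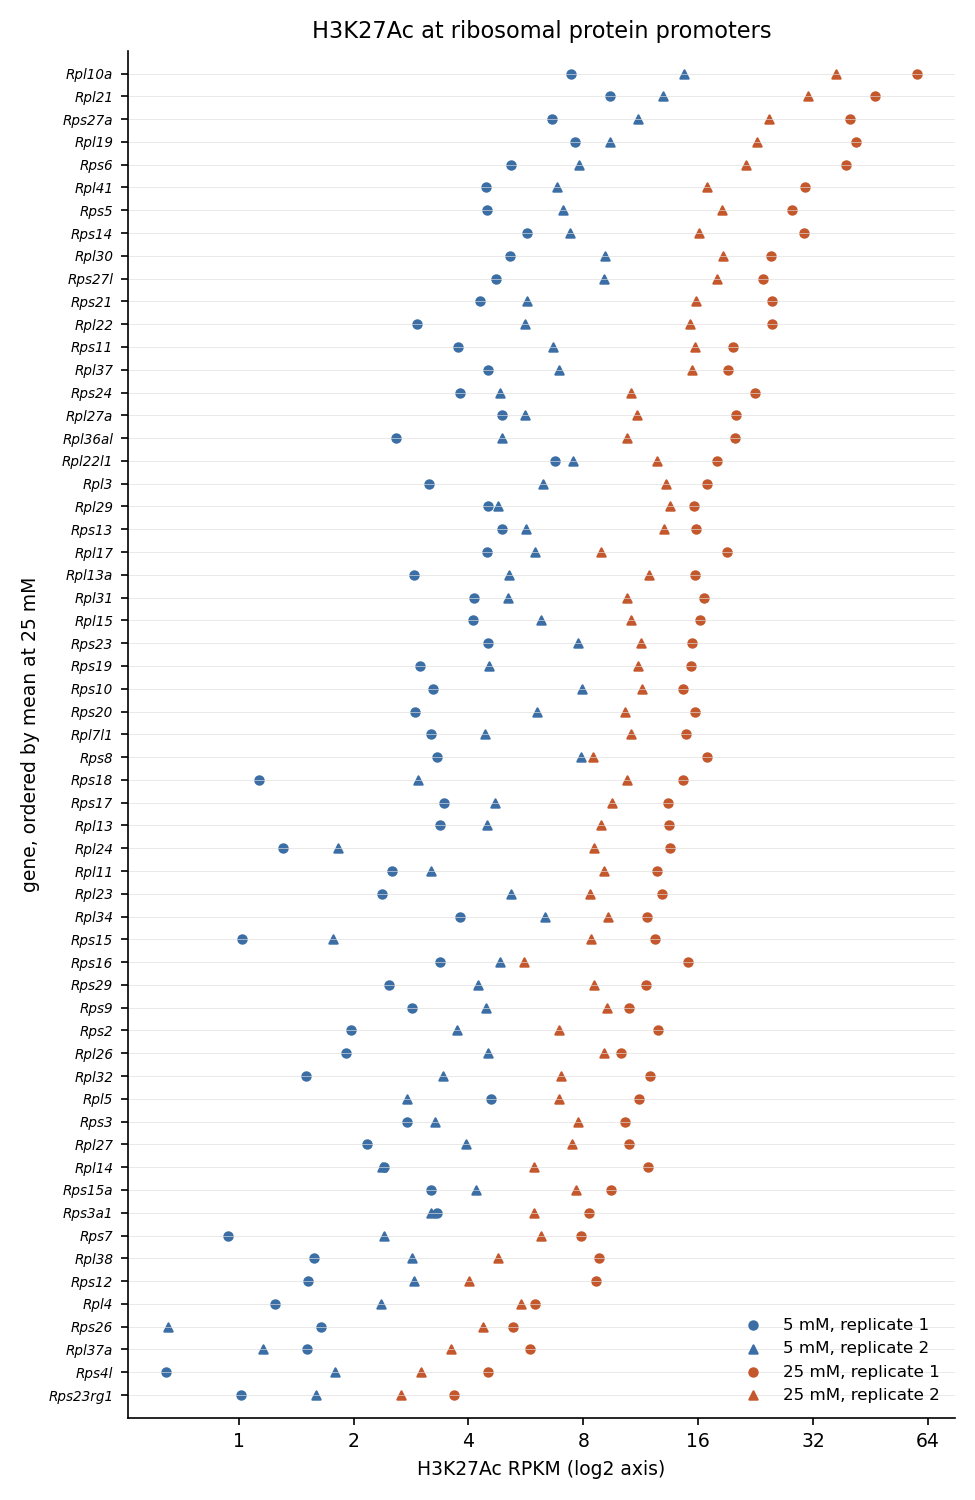
H3K27Ac RPKM (x axis, log2 scale) of 59 of the 60 promoters in each of the 4 libraries, ordered by the mean at 25 mM. Both 25 mM points (orange) lay to the right of both 5 mM points (blue) in every gene shown, and replicate 1 at 25 mM was the higher of its pair at each.

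The 3 largest H3K27Ac rises were at Rps15, Rpl24 and Rps18, which had started low. Rps15, a protein in the head of the small subunit, had 1.02 and 1.77 RPKM at 5 mM and 12.3 and 8.40 at 25 mM. Its log2 fold change was 2.53 ± 0.43 (SE, limma adjusted p = 5e-06). Rpl24, whose loss of 1 copy gives the mouse Belly spot and tail phenotype, had 1.30 and 1.82 RPKM at 5 mM and 13.5 and 8.55 at 25 mM, a change of 2.46 ± 0.44 (SE, adjusted p = 1.18e-05). Rps18 had 1.13 and 2.96 RPKM at 5 mM and 14.6 and 10.4 at 25 mM, a change of 2.43 ± 0.45 (SE, adjusted p = 2.31e-05). These were the 3 genes still called without replicate 2 at 25 mM, and none of them was called without replicate 1. At none of them were the groups close, and the first 2 have no pyrimidine run at the start shown above, whereas Rps18 has one of 9 bases.

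Rpl22 and Rpl10a completed the 5 largest. Rpl22, which binds RNA hairpins and is dispensable for translation in most cells, rose from 4.28 ± 1.90 to 20.1 ± 6.90 RPKM (SD, n = 2 each), a log2 change of 2.13. Rpl10a had the highest mean of both marks. Its H3K27Ac values were 7.41 and 14.7 RPKM at 5 mM and 60.0 and 36.8 at 25 mM, a log2 change of 2.11 ± 0.53 (SE, adjusted p = 0.00191).

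The next highest H3K27Ac levels were at Rpl21, Rps27a, Rpl19 and Rps6. Rpl21 went from 11.2 ± 2.50 to 38.8 ± 10.9 RPKM, Rps27a from 8.88 ± 3.17 to 32.3 ± 10.9, Rpl19 from 8.53 ± 1.27 to 32.2 ± 13.2 and Rps6 from 6.49 ± 1.85 to 30.2 ± 12.5 (SD, n = 2 each). Rps27a encodes ubiquitin fused to a small-subunit protein, and Rps6 is the classical target of the S6 kinases downstream of mTORC1. All 4 rose, by 1.74, 1.81, 1.80 and 2.10 on the log2 scale, and neighbours in this order did not differ beyond their spread.

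The lowest levels were at Rps23rg1, Rps4l, Rpl37a, Rps26 and Rpl4, with means of 3.16 to 5.74 RPKM at 25 mM. Rps23rg1, a retrogene of Rps23, had 1.02 and 1.59 RPKM at 5 mM and 3.66 and 2.66 at 25 mM, and its change of 1.03 was just past the threshold (adjusted p = 0.0498). Rps26, mutated in a share of Diamond-Blackfan anaemia, had 1.64 and 0.654 RPKM and then 5.22 and 4.38, a change of 1.75 (adjusted p = 0.00126). All 5 had separate groups.

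Below the threshold were 6 genes, among them some of the smallest changes. Rps3a1 had a log2 change of 1.00 (adjusted p = 0.0645), Rpl22l1 1.01 (adjusted p = 0.0905) and Rpl34 1.01 (adjusted p = 0.0768). At Rpl22l1, the paralogue that compensates for loss of Rpl22, values were 6.76 and 7.53 RPKM at 5 mM and 17.9 and 12.4 at 25 mM, so the groups were still separate.

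Most of these promoters also moved up in rank. Among all 14154 promoters the median percentile of the 60 was 57.9 and 59.3 in the 5 mM H3K27Ac libraries and 63.1 and 61.7 at 25 mM. The mean percentile of a gene was higher at 25 mM for 46 of 60. Levels at the 2 glucose concentrations kept the order of genes, with a Spearman correlation of 0.871 across the 60 genes. Genes are not independent replicates, and the points share libraries and peak widths.

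For H3K18La 39 of the 60 promoters reached the minimum mean of 1 RPKM and were tested, and 3 rose in limma, where 37.3% of all peaks and 32.6% of the promoters tested rose. The minimum was a mean over both glucose levels, so a promoter weak at 5 mM could pass through its 25 mM libraries. The median level of the 60 was 0.83 RPKM at 5 mM and 1.54 RPKM at 25 mM. With no minimum 1 of 60 was called, where 16.8% of promoters rose. The median log2 change over all 60 was 0.71 against 0.88 over all promoters, and 16 of 60 lay above the latter. This median was -0.20 after centring on the median of peaks and -0.19 after scaling to reads in peaks, so its direction depended on the scaling. The difference from the promoter median was -0.17. In the same settings that can change it, it lay between -0.22 and -0.05, with -0.11 without replicate 2 at 5 mM. Every 25 mM library exceeded every 5 mM library at 16 of 60 promoters, a share of 26.7%, against 45.1% of all promoters. None of the 60 was separated in the other direction. The count of 3 was 5 without replicate 1 or without replicate 3 at 5 mM, where 28.4% and 30.9% of promoters tested rose. Without replicate 1, 2 or 3 at 25 mM it was 1, 2 and 6, where 20.3%, 20.3% and 24.3% of promoters rose.

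Rpl10a stood out in this mark too. Its H3K18La was 2.21, 1.69 and 2.57 RPKM at 5 mM and 17.2, 8.02 and 6.87 at 25 mM, a log2 change of 1.98 ± 0.37 (SE, limma adjusted p = 0.00254), and it was called with each library left out. Rpl41, which encodes a very short basic peptide of the large subunit, had 0.913, 0.744 and 0 RPKM at 5 mM and 4.90, 2.37 and 2.60 at 25 mM, a change of 1.92 ± 0.53 (SE, adjusted p = 0.0165). Rps23rg1 had 0, 0.847 and 0.808 RPKM and then 4.47, 2.70 and 1.48, a change of 1.72 ± 0.57 (SE, adjusted p = 0.035), in the peak it shares with C330021F23Rik. In all 3 genes the groups did not overlap, and without replicate 1 at 25 mM only Rpl10a of the 3 was called. Rps23rg1 was also not called without replicate 2 at 25 mM or without replicate 1 at 5 mM. None of the 3 was called when libraries were centred on the median peak, scaled to reads in peaks or quantile normalized. Rpl41 and Rps23rg1 lay under 1 RPKM in every 5 mM library and passed the minimum mean only through the 25 mM libraries. With no minimum 1 of the 60 was called, beside 16.8% of promoters.

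Rpl5, Rps27a, Rpl21, Rpl22 and Rpl13a lay near the threshold, at adjusted p of 0.0502 to 0.0712. Rpl5 had 0, 0.509 and 0.971 RPKM at 5 mM and 2.68, 1.30 and 3.11 at 25 mM (change 1.60, adjusted p = 0.0502). Rps27a had 2.94, 1.95 and 1.14 and then 8.29, 5.16 and 2.88 (change 1.20, adjusted p = 0.0507), with overlapping groups. Rpl21 had 1.41, 0.574 and 2.92 and then 9.59, 4.39 and 2.34 (change 1.44, adjusted p = 0.0561), also overlapping. Rpl13a, released from ribosomes to silence inflammatory messages, had 2.15, 1.09 and 0 and then 6.34, 1.95 and 2.67 (change 1.55, adjusted p = 0.0712).

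At the low end were Rps9, Rps3a1, Rpl34 and Rps29, with fitted log2 changes of -0.28, -0.22, -0.06 and -0.04. Rps9 had 0.972, 0.594 and 0 RPKM at 5 mM and 0, 0.252 and 0.692 at 25 mM. None of these 4 reached the minimum mean and none was tested, and differences of this size were not detectable at a depth of a few reads per peak. Rps2, Rps18, Rpl23, Rps9 and Rps15 had the lowest H3K18La over the 6 libraries. At Rps18 and Rps15, which are also among the 3 largest H3K27Ac rises, H3K18La was 0.236 ± 0.409 and 0.390 ± 0.134 RPKM at 5 mM and 0.546 ± 0.116 and 0.658 ± 0.405 at 25 mM (SD, n = 3 each). At Rpl24, the other of those 3, it was higher, with 1.03 ± 1.00 and 1.11 ± 0.912 RPKM (SD, n = 3 each).

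**Figure D3:**
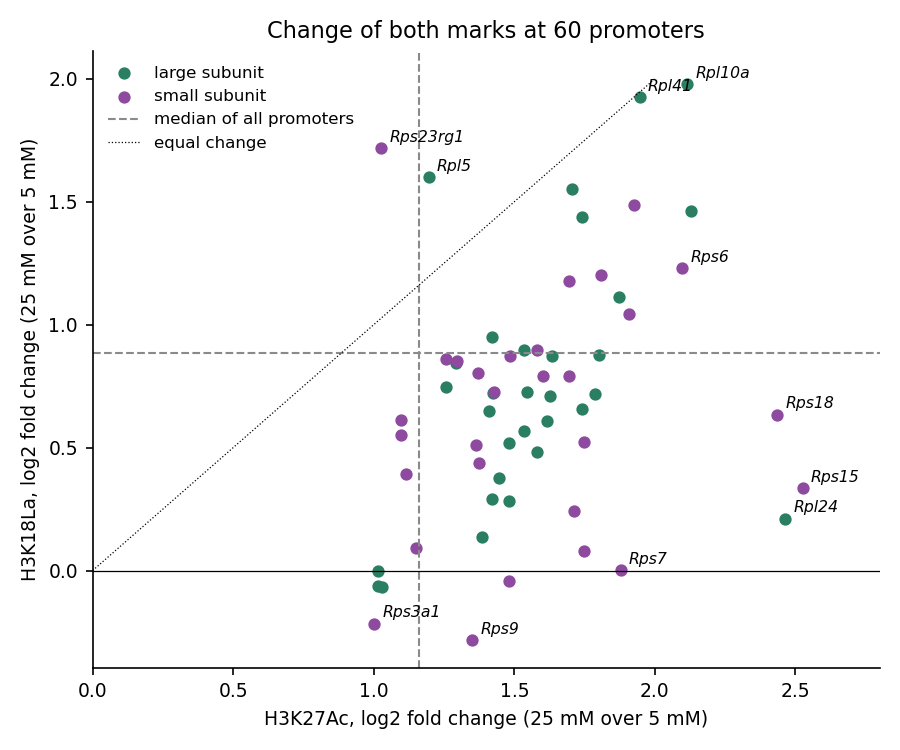
Log2 fold change (25 mM over 5 mM, on RPKM) of H3K27Ac (x axis) and H3K18La (y axis) for each promoter, coloured by subunit, with dashed lines at the medians of all promoters and a dotted line of equal change. Of the 60 points, 51 lay right of the H3K27Ac median of 1.16 and 16 above the H3K18La median of 0.88. Under scaling to reads in peaks the median H3K18La change of these genes turns negative.

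The 2 marks were compared in a glucose by mark term over all 10 libraries, as the H3K18La change minus the H3K27Ac change. The median of this difference was -0.86 on the log2 scale over the 60 promoters and -0.17 over all promoters. It was below 0 at all but 2 of the 60, namely Rps23rg1 (0.69) and Rpl5 (0.40). These values depended on the settings. The median over the 60 was -0.58 with a pseudocount of 0.1, -0.56 after scaling to reads in peaks, -0.26 with quantile normalization and -0.55 without the H3K27Ac replicate 1 at 25 mM, where that over all promoters was 0.07, -0.05, 0.02 and 0.03. In these fits 10, 8, 14 and 8 of the 60 lay above 0. No promoter of the 60 passed in limma, where 0% of 72467 peaks were called, while 7 of 60 and 3650 of all peaks had an unadjusted p under 0.05. With voom 0 peaks were called and 5431 had an unadjusted p under 0.05. The largest single differences were -2.25 at Rpl24 (unadjusted p = 0.0245) and -2.19 at Rps15 (unadjusted p = 0.00665). A difference between the marks is thus not shown for any single promoter, and since H3K18La lies near the pseudocount of 0.5, its log2 changes are compressed. Across the 60 genes the changes of both marks had a Spearman correlation of 0.354, against 0.367 over all promoters, and the mean levels 0.702 against 0.617.

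A comparison with promoters of like level in the other mark, though not in the mark that changed, used separate libraries for rank and for change. Within deciles of mean H3K18La, 55 of 60 ribosomal protein promoters had a larger H3K27Ac change than the median of the other promoters of their decile. The contrast was widest at the bottom, where 7 genes in the lowest decile had a median change of 1.60 against 0.42 for 1409 other promoters. The levels differed there too, since the medians of H3K27Ac were 2.04 and 9.90 RPKM for the 7 genes and 0.838 and 1.15 for the others at 5 and 25 mM, and changes near the pseudocount are compressed. In the sixth decile the values were 1.58 for 8 genes and 1.23 for 1407 others. Within deciles of mean H3K27Ac, 13 of 60 had a larger H3K18La change than the median of the others. The sixth decile held 15 of the genes, with a median H3K18La change of 0.44 against 0.89 for 1400 others.

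**Figure D4:**
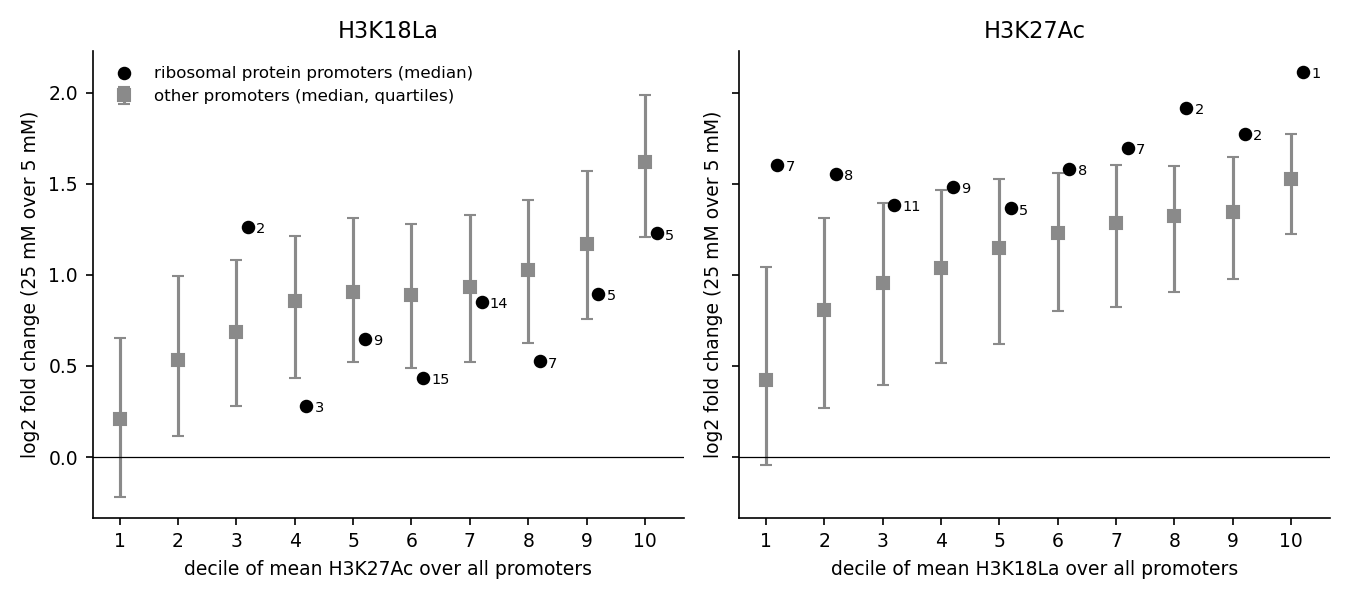
Median log2 fold change of the ribosomal protein promoters (black, number of genes beside each point) and of the other promoters (grey, with quartiles), by decile of the mean of the other mark. H3K27Ac changes of the 60 genes lay above the grey medians in every decile and H3K18La changes below them in 7 of the 8 deciles that held any. On scaling to reads in peaks the overall H3K18La median of these genes is below 0.

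Large and small subunits gave like values. The median H3K27Ac change was 1.53 for 31 large-subunit and 1.48 for 29 small-subunit genes, with 28 and 26 called, where 59.0% of promoters tested rose. For H3K18La the medians were 0.72 and 0.63, with 2 of 20 and 1 of 19 tested genes called, where 32.6% of promoters rose. Host genes of small nucleolar RNAs, of which there were 22, had a median H3K27Ac change of 1.43 against 1.62 for the other 38. For genes with a pyrimidine run within 10 bases of the start it was 1.58 (25 genes), and for those with a sequence but no such run 1.48 (19 genes). No test was made between these subsets of the 60.

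Of the 9 genes fixed for Diamond-Blackfan anaemia, an inherited failure of red cell formation, 8 had a promoter row. All 8 rose in H3K27Ac, as did 59.0% of promoters tested, with changes from 1.20 at Rpl5 to 1.88 at Rps7 and a median of 1.72. Rps19, the gene most often mutated, had 2.99 and 4.52 RPKM at 5 mM and 15.3 and 11.1 at 25 mM (change 1.70, limma adjusted p = 0.00429). For H3K18La 5 of the 8 were tested and none rose, where 32.6% of promoters did. Rps19 had 0.682, 0.694 and 0 RPKM and then 2.56, 1.06 and 1.21 (change 1.18, adjusted p = 0.169), and Rps7, at 0.737 ± 0.659 and 0.664 ± 0.322 RPKM (SD, n = 3 each), was not tested. Rpl11, which with Rpl5 and 5S rRNA restrains the p53 ligase Mdm2, went from 2.85 ± 0.473 to 10.8 ± 2.44 RPKM of H3K27Ac (SD, n = 2 each).

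Genes with roles outside the core ribosome and paralogues had H3K27Ac changes from 1.01 at Rpl22l1 to 1.87 at Rpl36al. Rps3, a small-subunit protein that also acts in DNA repair, changed by 1.43 in H3K27Ac, and Rpl38, needed for translation of a subset of Hox messages, by 1.41, and both passed in limma. Of 6 paralogues or retrogenes 5 rose in H3K27Ac, where 59.0% of promoters did, namely Rps27l, a p53 target, by 1.58, Rpl36al by 1.87, Rpl7l1 by 1.62, Rps4l by 1.37 and Rps23rg1 by 1.03. Rpl22l1, with the change given above, did not pass. Rps3a1, a core small-subunit gene that had been fixed with these, is not counted among them. For H3K18La 5 of the 6 were tested and 1, Rps23rg1, rose, where 32.6% of promoters did. There Rps27l had 1.16, 1.26 and 0.601 RPKM at 5 mM and 2.08, 2.81 and 1.93 at 25 mM (adjusted p = 0.119).

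Other genes of protein synthesis and of housekeeping were read from fixed lists in the same way, and each count of calls stands beside 59.0% of promoters tested for H3K27Ac and 32.6% for H3K18La. Cytosolic ribosomal proteins outside the symbol rule, 4 genes, had a median H3K27Ac change of 1.59, and all 4 rose, with the smallest change, 1.39, at Rplp1 of the acidic stalk. For H3K18La 1 of 3 tested rose, with a median of 1.16. Mitochondrial ribosomal proteins, 57 genes, had the same H3K27Ac median of 1.53 with 50 of 57 called. Their H3K18La median was 0.77, with 7 of 42 tested called. The widest H3K27Ac change among them was at Mrps12, from 4.89 ± 3.57 to 28.6 ± 6.91 RPKM (SD, n = 2 each).

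A list of translation factors and other genes with TOP messages, 14 genes, had a median H3K27Ac change of 1.41 with 10 called. The changes ran from Eif3h (0.85) to Eef1d (1.86), and 3 of 11 tested rose in H3K18La. Ribosome biogenesis factors, 15 genes, had 9 called, from Bop1 (0.29) to Pes1 (1.98), and 0 of 9 tested rose in H3K18La. For RNA polymerase I, 11 genes, 9 were called with a median of 1.55, and 0 of 7 tested rose in H3K18La. In mTORC1 and translation control 9 of 12 genes rose in H3K27Ac (median 1.33), with Tsc1, a brake on mTORC1, at 2.14. In H3K18La 1 of 10 tested rose, which was Eif4ebp1, the mTORC1-controlled inhibitor of cap binding (change 1.37, adjusted p = 0.0172).

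Regulators of ribosomal protein genes, 11 genes, had 9 of 10 tested called in H3K27Ac (median 1.30), with Gabpa, an ETS factor, at 1.99. In H3K18La 3 of 10 tested rose, with Ino80 at 1.70. Proteasome subunits, 22 genes, had a median H3K27Ac change of 1.48 with 18 called and a median H3K18La change of 0.71 with 2 of 13 tested called. Phototransduction genes, the specialised set of rods and cones, had the highest medians of the 9 lists. All 19 rose in H3K27Ac with a median of 2.08, and 18 of 19 rose in H3K18La with a median of 2.08, where RPKM was the scale for both.

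**Figure D5:**
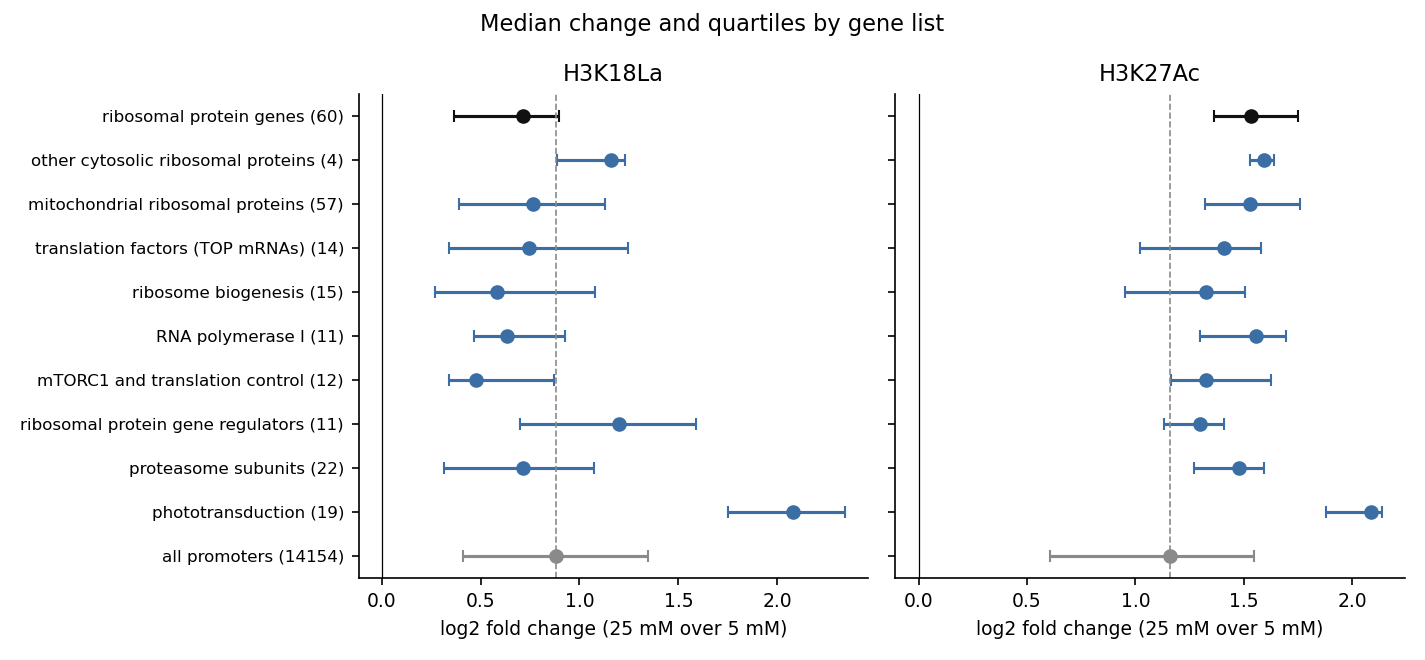
Median log2 fold change on RPKM (25 mM over 5 mM, points) with quartiles (bars) for each gene list, number of genes in brackets, and a dashed line at the median of all promoters. The list labelled translation factors also holds other genes with TOP messages. For H3K27Ac the ribosomal protein genes lay at 1.53, beside mitochondrial ribosomal proteins and proteasome subunits and below phototransduction at 2.08. For H3K18La they lay at 0.71, left of the dashed line at 0.88. On scaling to reads in peaks these 2 medians are 0.37 and -0.19.

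The labelled tissue was checked through H3K27Ac at marker promoters. The photoreceptor genes Crx and Rcvrn had a median percentile of 96.1 among promoters over the 4 libraries. Their summed RPKM was 16.1 to 25.4 at 5 mM and 72.5 to 118 at 25 mM. Müller glia markers, 3 of 3 with a promoter peak, summed to 9.78 to 12.9 and 25.5 to 31.5, bipolar markers, 3 of 3, to 3.29 to 4.68 and 15.7 to 25.7, and amacrine markers, 2 of 3, to 6.65 to 8.85 and 18.5 to 39.1. The cone marker Gnat2 (1 of 2 markers) had 1.09 to 1.52 and 3.68 to 4.59, and ganglion cell markers, 2 of 3, had 0.891 to 1.90 and 0.808 to 2.09. Of the markers of other tissues, no promoter row was found for 3 microglia and 3 red cell genes. Endothelial markers (2 of 3) summed to 2.96 to 5.40 at 5 mM and 0.844 to 3.28 at 25 mM, Cryaa of the lens (1 of 3) to 0.539 to 0.876 and 1.08 to 1.78, Ckm of muscle (1 of 3) to 4.10 to 7.66 and 15.1 to 20.8, and Rlbp1, which pigment epithelium shares with Müller glia (1 of 4), to 2.18 to 4.05 and 6.78 to 10.1. Photoreceptor marker signal was higher at 25 mM along with the ribosomal protein promoters, and its part in the result was not tested.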

How the data were processed

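CUT&Tag reads were aligned by the authors to GRCm38 with nf-core/cutandrun, peaks were called with MACS, those found in several replicates were merged, and ChIPseeker 1.34.1 gave their annotation (labels and methods). The deposited values are RPKM per peak and library. They were whole multiples of 1 read (100% of values, tolerance 0.01), so reads and denominators were recovered. The main test was limma on the deposited RPKM, and voom on the recovered reads was an alternative. Per its methods, reads were quantified over merged consensus peaks of a developmental H3K18La series, so H3K27Ac was read at peaks that may have been chosen for H3K18La. A second deposited table holds the authors' own fold changes and p-values and was not used.

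Each mark was fitted in limma 3.58.1 (R 4.3.3) with an intensity trend on log2(RPKM + 0.5), over peaks with a mean of at least 1 RPKM in that mark, with Benjamini-Hochberg adjustment over all peaks tested and a threshold of 0.05. Fold changes on this scale understate weak peaks. A glucose by mark term used all 10 libraries. Medians cover all 60 genes and all 14154 promoters whether tested or not, and medians over tested promoters alone are an alternative chosen after seeing the data.

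The members, lists and rules were chosen with earlier results of these data known. Members named are, per mark, the 5 highest and 5 lowest in fold change and in mean level, together with anaemia genes, genes with textbook roles and paralogues. Rps21 and Rpl14 are shown for their sequence. Lists name at most 4 genes, the extremes of each mark. Some genes named by these rules are not reported here. Sequences, and the starts used for windows and motifs, are RefSeq (GRCm38.p6). Neighbouring coding starts and small nucleolar RNAs came from GENCODE M21. Same-numbered replicates did not deviate together (correlations 0.0076 to 0.031), so the main fit had no block. Alternatives covered pseudocount, minimum, scaling, moderation, voom, threshold, peak choice, GC content, block and leaving out each library.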

Additional observations from a re-analysis of the deposited data

How the results depend on the processing

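H3K27Ac calls among the 60 promoters, 54 as reported, fell to 0 with no minimum, with scaling to reads in peaks and with quantile normalization, where 0% of all peaks were called. They were 6 after centring on the median of peaks, 33 at an adjusted p of 0.01, 22 with the replicate block and 24 with the replicate block and GC trend removed together, where 3.64%, 28.3%, 16.4% and 16.9% of promoters were called higher, against 59.0% as reported. Leaving out 1 library gave 0 to 59 calls, where 0.00811% to 74.4% of promoters were called higher. In those fits 1 arm had a single library, which was assumed to vary like the others. The H3K27Ac median change of 1.53 became 0.85 after centring on the median, 0.37 with reads in peaks and 0.43 with quantile normalization. Its excess over the promoter median, 0.37, became 0.29 with quantile normalization and 0.28 over promoters past the minimum only (added after the data were seen), with a range of 0.30 to 0.46 when 1 library was left out.

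H3K18La calls, 3 as reported beside 32.6% of promoters, were 1 with a pseudocount of 0.1, with no minimum or at an adjusted p of 0.01 (24.5%, 16.8% and 14.2% of promoters), 5 with robust moderation or the replicate block (32.1% and 31.0%), 6 with a pseudocount of 1 or voom (35.3% and 47.3%), and 0 with centring on the median, reads in peaks or quantile normalization, where 1.16%, 0% and 0% of promoters were called higher. Leaving out 1 library gave 1 to 6, beside 20.3% to 30.9% of promoters. The median change of 0.71 was 1.07 and 0.48 with pseudocounts of 0.1 and 1, 0.0883 with quantile normalization, and reversed to -0.20 after centring and -0.19 with reads in peaks. Its difference from the promoter median, -0.17, was -0.127 with reads in peaks, -0.0469 with quantile normalization and -0.22 to -0.11 without 1 library.

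The glucose by mark term called 0 of the 60 in each of its 27 alternatives, while its median over the 60, -0.86 as reported, lay between -1.18 and -0.26. For the named genes, 238 of 756 H3K27Ac results and 23 of 828 H3K18La results lost the threshold, 10 and 23 gained it, and no called direction reversed. With the replicate block, H3K27Ac calls over all peaks also fell, from 33.9% to 10.9%, while H3K18La calls over all peaks went from 37.3% to 36.4%. The cause of these changes was not tested. H3K18La depth, a few reads per peak, limits every single-gene statement on that mark.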
